A study of Mus musculus with 9 samples.

Results

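Podocyte and slit diaphragm genes were followed in kidney RNA of mice with and without ischemia-reperfusion (IR) injury. The members are 31 genes listed by name as known podocyte genes, and each was matched through its mouse Ensembl identifier among the 56923 genes of the count table. All 31 passed the low-count filter that left 17036 genes for testing. Clic3, Foxc2 and Lmx1b each had 1 group in which fewer than 3 libraries reached the filter's minimum, and each passed through the other 2 groups. The wild-type kidneys form 3 groups of 3 libraries: sham (surgery, no IR injury, treatment label PBS), AKI_PBS (acute kidney injury with phosphate-buffered saline) and AKI_PTPi_mEVs (acute kidney injury with milk-derived extracellular vesicles loaded with siRNA for PTP1B, a tyrosine phosphatase whose gene is Ptpn1). None of these groups is labelled as having received vesicles without siRNA or with a control siRNA, so AKI_PTPi_mEVs against AKI_PBS compares saline with the loaded vesicles as a whole. Strain, age and time after injury are not stated in the labels used here, which also leave unsaid if each library is a different animal. The p-values therefore measure the spread between these samples, which may be technical.

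Podocytes are the epithelial cells that wrap the glomerular capillaries with interlocking foot processes. Neighbouring foot processes are joined by the slit diaphragm, a modified cell junction built around nephrin, and a dense actin cytoskeleton behind it holds their shape. Transcription factors such as WT1 keep the podocyte differentiated, and mutations in many of these genes cause protein loss into the urine. Podocytes are a small part of the kidney's cells, and IR injury is best known for damage to tubules. Nephrin passes signals through phosphorylated tyrosines.

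The stretches of 250 bases before the RefSeq start site (build GRCm38.p6, mouse) are shown for 4 members that span the responses described below, so that members moving in opposite directions can be read side by side. They belong to Cd2ap and Efnb1, which had the largest rises after injury, to Clic3, which had the largest fall, and to the slit diaphragm scaffold gene Magi2, which also fell. Capitals mark matches, on either strand, to any of the 4 motifs TGTTTAC (forkhead factors), CAGCTG (an E-box of the kind bound by TCF21), TAATTA (homeodomain factors such as LMX1B) and GCGTGGG (shared by WT1 and EGR factors). The windows lie at chr17:42876425-42876674 (minus strand), chrX:99135811-99136060 (plus), chr2:25456593-25456842 (plus) and chr5:19226796-19227045 (plus).
Cd2ap: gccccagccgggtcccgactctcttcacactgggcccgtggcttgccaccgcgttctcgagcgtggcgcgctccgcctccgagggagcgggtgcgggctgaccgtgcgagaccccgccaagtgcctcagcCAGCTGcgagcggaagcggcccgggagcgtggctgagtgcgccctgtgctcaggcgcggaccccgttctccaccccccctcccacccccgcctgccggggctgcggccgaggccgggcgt
Efnb1: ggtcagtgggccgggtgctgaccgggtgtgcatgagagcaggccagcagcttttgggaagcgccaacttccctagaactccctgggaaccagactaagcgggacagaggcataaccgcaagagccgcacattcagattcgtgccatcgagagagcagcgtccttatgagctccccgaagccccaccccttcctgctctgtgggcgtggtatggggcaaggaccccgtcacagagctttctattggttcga
Clic3: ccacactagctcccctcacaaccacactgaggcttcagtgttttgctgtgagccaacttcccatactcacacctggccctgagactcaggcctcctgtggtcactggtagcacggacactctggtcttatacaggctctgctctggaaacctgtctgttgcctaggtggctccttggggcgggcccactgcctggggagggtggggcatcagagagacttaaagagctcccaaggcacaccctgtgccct
Magi2: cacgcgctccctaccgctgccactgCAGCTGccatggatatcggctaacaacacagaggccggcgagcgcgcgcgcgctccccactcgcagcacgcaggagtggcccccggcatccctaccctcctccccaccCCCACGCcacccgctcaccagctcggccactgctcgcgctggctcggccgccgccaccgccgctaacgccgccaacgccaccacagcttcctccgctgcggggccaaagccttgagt
The Cd2ap window was 76.4% G and C, the Efnb1 window 60.00%, the Clic3 window 58.8% and the Magi2 window 72.00%, beside a median of 52.4% over all 32851 windows of that table. It holds windows for 23 of the 31 members, 25 windows in all. CAGCTG was found in 5 of these 25 windows (Cd2ap, Iqgap2, Magi2, Sema3g and Thsd7a) and in 13% of all windows (4271). GCGTGGG was found in 3 of them (Actn4, Magi2 and Thsd7a) and in 4.30% of all. TGTTTAC was found in 1 (Pdpn; 3.17% of all) and TAATTA in 1 (a second Magi2 window, not shown; 4.84% of all). No motif overlapped another in the windows shown. A match is only a run of letters. CAGCTG was present before Cd2ap, which rose, and before Magi2, which fell.

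Library totals lay between 9467851 and 11389479 counts, a ratio of 1.20. Levels are CPM, counts relative to a library whose total was scaled by its TMM factor. Differences are log2 ratios ± standard error from edgeR, where the quasi-likelihood test made a call below a Benjamini-Hochberg adjusted p of 0.05 over 17036 genes, and SD is written where it is meant. Ptpn1, the siRNA target, lay at 80.9 to 98.8 CPM in sham, 123 to 170 CPM in AKI_PBS and 94.0 to 106 CPM in AKI_PTPi_mEVs. AKI_PBS replicate 3 stood apart from its group in the tubular injury marker Havcr1, at 104 CPM beside 1025 and 971 CPM, and was the lowest of all 9 for Magi2, Clic3 and Ptpro. Havcr1 lay at 2.16 to 2.24 CPM in sham and at 585, 1350 and 375 CPM in AKI_PTPi_mEVs. Its difference between the injured groups did not pass (log2 ratio 0.14 ± 0.76, adjusted p = 0.894 by edgeR). Scaling by library totals moved the median of all genes by -0.11 on the log2 scale in AKI_PTPi_mEVs against AKI_PBS and by less than 0.1 in the other comparisons, and it turned the direction of no member that passed. In whole kidney, fewer podocytes and less RNA per podocyte cannot be told apart.

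After injury with PBS, members changed in both directions, as did the tested genes as a whole. Against sham, 14 of the 31 members rose and 6 fell, where 27.8% of all tested genes rose, 27.9% fell and 55.7% passed in either direction. The share of members that passed, 64.5%, lies near the share of all genes and is by itself no result about podocyte genes. The median log2 ratio of the members was 0.35 and that of all genes 0.03. Changes ran from -2.94 for Clic3 to 1.71 for Cd2ap. Without AKI_PBS replicate 3, 14 members rose and 6 fell. Leaving out each of the 6 libraries in turn gave 10 to 15 members higher and 5 or 6 lower.

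Between the injured groups the directions were mirrored. In AKI_PTPi_mEVs against AKI_PBS, 14 members were lower and 5 higher, where 25.8% of all genes were lower, 25.4% higher and 51.1% passed in either direction. The median was -0.54 for the members and -0.03 for all genes. Without AKI_PBS replicate 3, 13 were lower and 5 higher. The AKI_PBS libraries serve in both of these comparisons, so the mirrored directions are not separate evidence. In AKI_PTPi_mEVs against sham, 2 members were higher (Cd2ap and Actn4; 7.43% of all genes) and 1 lower (Sema3g; 5.79% of all genes), with 13.2% of all genes passing in either direction and 28 members not passing. The median was -0.01 for the members and -0.01 for all genes.

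**Figure D1:**
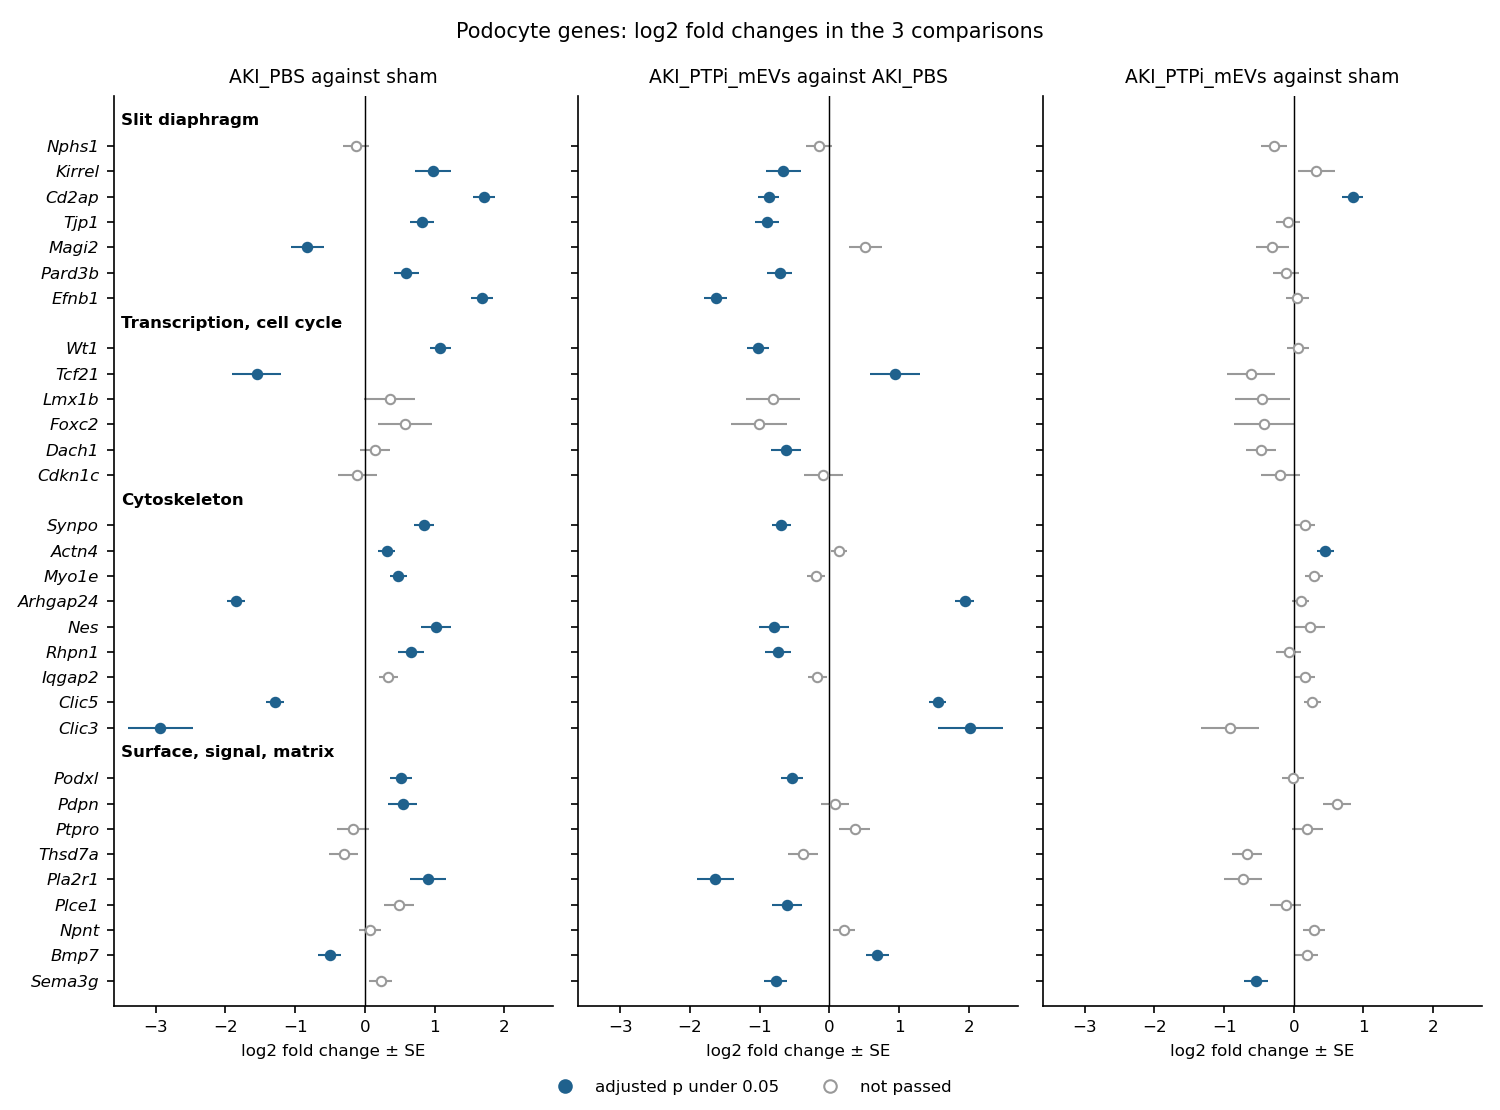
Log2 ratios (x axis, bars are standard errors) of the 31 members, grouped by role, in the 3 comparisons with 3 libraries per group. Filled points passed an edgeR adjusted p of 0.05 and open points did not. In the left panel 14 filled points lie right of zero and 6 left of it, in the middle panel 5 and 14, and in the right panel 2 and 1.

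The 7 slit diaphragm and junction members rose in 5 cases after injury, fell in 1 and did not pass in 1, with a median log2 ratio of 0.82. The 5 that rose (Cd2ap, Efnb1, Tjp1, Kirrel and Pard3b) all have wider expression in kidney. Of those known mainly from podocytes in this role, Nphs1 did not pass and Magi2 fell, so the rise cannot be assigned to podocytes. With the vesicles 5 were lower than in AKI_PBS and 2 did not pass (median -0.71). The shares passing were 85.7% and 71.4%, beside 55.7% and 51.1% of all genes. Nphs1 encodes nephrin, the adhesion protein that bridges the slit. It held 17.6, 13.1 and 12.4 CPM in sham, 12.8, 12.8 and 13.9 CPM in AKI_PBS and 12.4, 10.9 and 12.2 CPM in AKI_PTPi_mEVs. These levels overlapped between sham and AKI_PBS, and the highest was sham replicate 1. Nphs1 passed in no comparison: AKI_PBS against sham gave -0.13 ± 0.18 (adjusted p = 0.571 by edgeR), AKI_PTPi_mEVs against AKI_PBS -0.15 ± 0.19 (adjusted p = 0.517 by edgeR) and AKI_PTPi_mEVs against sham -0.28 ± 0.19 (adjusted p = 0.35 by edgeR). A p that misses the threshold does not show equal levels.

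Cd2ap, an adaptor that ties nephrin to the actin cytoskeleton and that many cells use in endocytosis, had the largest rise. Its libraries held 67.8, 57.4 and 58.3 CPM in sham, 204, 222 and 176 CPM in AKI_PBS and 101, 131 and 97.2 CPM in AKI_PTPi_mEVs. The 3 groups did not overlap, and AKI_PTPi_mEVs lay between the others. Cd2ap rose 3.28-fold in AKI_PBS against sham (log2 ratio 1.71 ± 0.16, adjusted p = 2.49e-06 by edgeR). It was lower in AKI_PTPi_mEVs than in AKI_PBS (log2 ratio -0.87 ± 0.15, adjusted p = 0.000471 by edgeR) and higher than in sham (log2 ratio 0.84 ± 0.15, adjusted p = 0.00417 by edgeR).

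Efnb1 encodes ephrin-B1, a membrane ligand of Eph receptors that lies at the slit diaphragm and also in many other cells. Its levels were 25.1, 22.9 and 18.5 CPM in sham, 64.5, 68.2 and 80.8 CPM in AKI_PBS and 22.3, 25.9 and 20.7 CPM in AKI_PTPi_mEVs. Every AKI_PBS library was above every other library, while sham and AKI_PTPi_mEVs overlapped. Efnb1 rose 3.21-fold after injury (log2 ratio 1.68 ± 0.16, adjusted p = 3.49e-06 by edgeR) and was lower with the vesicles (log2 ratio -1.63 ± 0.16, adjusted p = 7.15e-06 by edgeR). Against sham, AKI_PTPi_mEVs gave 0.05 ± 0.16, which did not pass (adjusted p = 0.875 by edgeR).

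Magi2, a scaffold protein gene of the slit diaphragm, was the 1 member of this role that fell after injury. Its libraries held 19.7, 17.7 and 15.8 CPM in sham, 10.9, 12.9 and 6.27 CPM in AKI_PBS and 12.4, 14.4 and 16.3 CPM in AKI_PTPi_mEVs. All AKI_PBS libraries lay below all sham libraries, and AKI_PBS replicate 3 lay lowest. The fall passed in AKI_PBS against sham (log2 ratio -0.82 ± 0.24, adjusted p = 0.0106 by edgeR). AKI_PTPi_mEVs gave 0.52 ± 0.24 against AKI_PBS (adjusted p = 0.0895 by edgeR), which passed without AKI_PBS replicate 2 (0.74) and with no low-count filter (0.56).

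Tjp1, Kirrel and Pard3b rose as well. Tjp1, which encodes the tight junction protein ZO-1 found in most epithelia, had means of 35.1 ± 6.31 CPM (SD, n = 3) in sham, 61.99 ± 10.6 CPM (SD, n = 3) in AKI_PBS and 33.2 ± 4.22 CPM (SD, n = 3) in AKI_PTPi_mEVs. It rose in AKI_PBS (log2 ratio 0.82 ± 0.17, adjusted p = 0.00144 by edgeR) and was lower with the vesicles (log2 ratio -0.90 ± 0.17, adjusted p = 0.000922 by edgeR). Kirrel, whose protein NEPH1 binds nephrin across the slit, rose by 0.98 ± 0.26 (adjusted p = 0.00573 by edgeR) from 3.35 ± 0.972 CPM (SD, n = 3) in sham. Its lower level in AKI_PTPi_mEVs against AKI_PBS was -0.66 ± 0.25 (adjusted p = 0.0428 by edgeR). That call was lost without AKI_PBS replicate 2 (-0.67) or 3 (-0.57), without AKI_PTPi_mEVs replicate 1 (-0.62), 2 (-0.60) or 3 (-0.72) and with no low-count filter (-0.62). Pard3b, a relative of the polarity gene Pard3, rose by 0.60 ± 0.18 (adjusted p = 0.014 by edgeR), a call lost without sham replicate 2 (0.57) or 3 (0.49) or AKI_PBS replicate 2 (0.43). It was lower with the vesicles (log2 ratio -0.71 ± 0.18, adjusted p = 0.00591 by edgeR). Exons of the antisense gene Pard3bos1 overlap it, and that gene held 4.09% as many counts as Pard3b over the 9 libraries, the highest such share among the members. The summed level of the 7 genes was 149 to 193 CPM in sham, 372 to 408 CPM in AKI_PBS and 194 to 233 CPM in AKI_PTPi_mEVs, and Cd2ap took the largest part of it in each group.

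Of the 6 transcription and cell cycle members, 1 rose, 1 fell and 4 did not pass after injury (median 0.25). With the vesicles 1 was higher than in AKI_PBS, 2 were lower and 3 did not pass (median -0.71). In these comparisons 33.3% and 50% passed, beside 55.7% and 51.1% of all genes. Wt1, the zinc finger factor that maintains podocyte identity and marks mesothelium as well, held 17.7, 16.6 and 13.2 CPM in sham, 36.05, 32.4 and 32.3 CPM in AKI_PBS and 16.4, 16.5 and 16.7 CPM in AKI_PTPi_mEVs. Every AKI_PBS library was above every other, and the AKI_PTPi_mEVs libraries lay within the sham range. Wt1 rose 2.12-fold (log2 ratio 1.08 ± 0.15, adjusted p = 7.48e-05 by edgeR) and was lower with the vesicles (log2 ratio -1.02 ± 0.15, adjusted p = 0.000157 by edgeR), and AKI_PTPi_mEVs against sham gave 0.06 ± 0.16 (adjusted p = 0.836 by edgeR). Tcf21, a basic helix-loop-helix factor of podocytes and kidney stroma, went the other way, with 33.02, 30.8 and 17.6 CPM in sham, 7.78, 6.18 and 13.8 CPM in AKI_PBS and 25.5, 11.1 and 16.3 CPM in AKI_PTPi_mEVs. All AKI_PBS libraries were below all sham libraries, and AKI_PTPi_mEVs overlapped with both groups. Tcf21 fell 2.94-fold after injury (log2 ratio -1.55 ± 0.36, adjusted p = 0.00279 by edgeR). Its higher level with the vesicles passed narrowly (log2 ratio 0.94 ± 0.36, adjusted p = 0.0438 by edgeR). That call was lost without AKI_PBS replicate 1 (0.84) or 2 (0.72), without AKI_PTPi_mEVs replicate 1 (0.58) or 3 (1.01), with library totals (0.85) and with only the 2 groups fitted (0.95). Against sham AKI_PTPi_mEVs gave -0.62 ± 0.34 (adjusted p = 0.261 by edgeR), which passed with no low-count filter (-0.61).

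Lmx1b and Foxc2 were measured near the lower end of the counts. Lmx1b, a homeodomain factor needed for podocyte differentiation, held 2.65, 1.86 and 1.73 CPM in sham, 2.68, 3.35 and 1.94 CPM in AKI_PBS and 2.29, 1.42 and 0.769 CPM in AKI_PTPi_mEVs. Foxc2, a forkhead factor of podocytes and vessels, held 1.27, 0.930 and 1.52 CPM, 1.38, 2.40 and 1.77 CPM and 1.38, 0.764 and 0.550 CPM in the same order of groups. Both genes had 7 counts or fewer in at least 1 AKI_PTPi_mEVs library, and neither passed in any comparison. In AKI_PTPi_mEVs against AKI_PBS, Foxc2 gave -1.01 ± 0.41 (adjusted p = 0.0525 by edgeR), which passed without AKI_PBS replicate 1 (-1.17), without AKI_PTPi_mEVs replicate 1 (-1.46) and with library totals (-1.11). Lmx1b gave -0.80 ± 0.39 (adjusted p = 0.0996 by edgeR) and passed without AKI_PTPi_mEVs replicate 1 (-1.26). Cdkn1c encodes p57, the cell cycle inhibitor of resting podocytes. It held 6.37, 4.74 and 3.35 CPM in sham, 3.72, 5.66 and 4.06 CPM in AKI_PBS and 4.13, 3.93 and 4.62 CPM in AKI_PTPi_mEVs, groups that overlapped throughout, and it passed in no comparison (adjusted p = 0.765 by edgeR for AKI_PBS against sham). Dach1, a transcriptional cofactor also present in distal tubule, had 14.04 ± 3.61 CPM (SD, n = 3) in AKI_PBS and 9.16 ± 0.306 CPM (SD, n = 3) in AKI_PTPi_mEVs. It was lower with the vesicles (log2 ratio -0.62 ± 0.22, adjusted p = 0.0292 by edgeR), a call lost without AKI_PBS replicate 2 (-0.39), without AKI_PTPi_mEVs replicate 1 (-0.60), 2 (-0.57) or 3 (-0.62), with no low-count filter (-0.57) and with only the 2 groups fitted (-0.61).

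**Figure D2:**
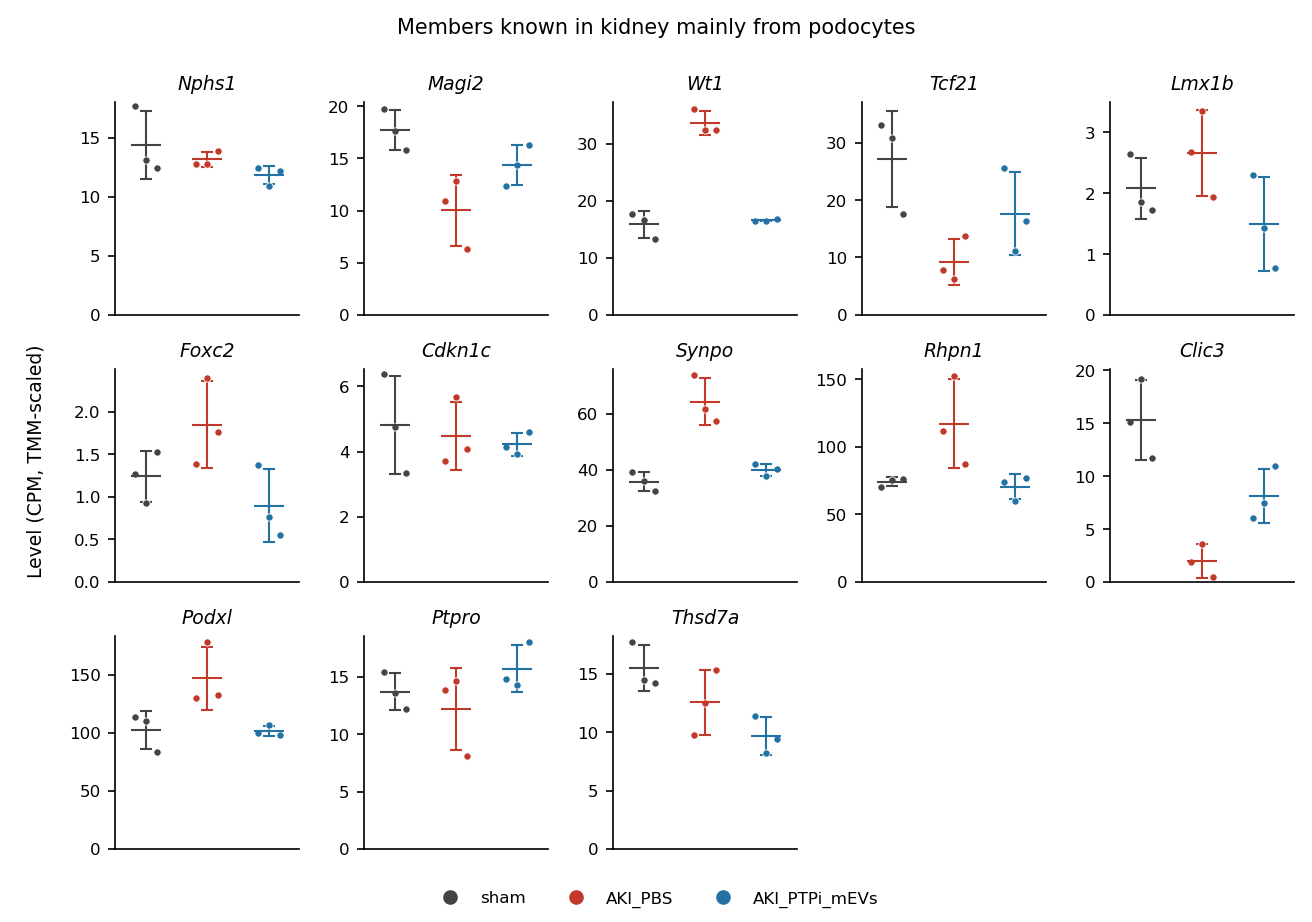
Levels (y axis, CPM, from zero) of the 13 members known in kidney mainly from podocytes, by group, with 1 point per library and the mean ± SD. Wt1 and Synpo stand higher in all 3 AKI_PBS libraries than in any other library, Clic3 and Tcf21 lie lower in AKI_PBS than in sham, and Nphs1, Cdkn1c and Ptpro overlap between sham and AKI_PBS.

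The 9 cytoskeleton members split into 5 that rose, 3 that fell and 1 that did not pass after injury (median 0.34). With the vesicles 3 were higher than in AKI_PBS, 3 lower and 3 did not pass (median -0.18). The shares passing were 88.9% and 66.7%, beside 55.7% and 51.1% of all genes. Synpo encodes synaptopodin, an actin-organizing protein of foot processes. It held 39.1, 35.9 and 32.3 CPM in sham, 73.7, 61.7 and 57.5 CPM in AKI_PBS and 42.03, 37.7 and 40.1 CPM in AKI_PTPi_mEVs. All AKI_PBS libraries were above all others, with AKI_PTPi_mEVs overlapping sham. Synpo rose 1.80-fold (log2 ratio 0.85 ± 0.14, adjusted p = 0.000244 by edgeR) and was lower with the vesicles (log2 ratio -0.69 ± 0.14, adjusted p = 0.0013 by edgeR). Rhpn1 held 70.6, 75.8 and 76.4 CPM in sham, 112, 153 and 86.95 CPM in AKI_PBS and 74.2, 60.04 and 77.2 CPM in AKI_PTPi_mEVs. AKI_PBS replicate 2 was the highest and AKI_PBS replicate 3 was the one nearest to sham. Rhpn1 rose (log2 ratio 0.66 ± 0.18, adjusted p = 0.00828 by edgeR) and was lower with the vesicles (log2 ratio -0.73 ± 0.18, adjusted p = 0.00505 by edgeR). Without AKI_PBS replicate 2 the rise was 0.42 and still passed.

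Nes encodes nestin, an intermediate filament protein of podocytes and vessels. Its libraries held 25.7, 28.6 and 22.05 CPM in sham, 40.5, 72.6 and 41.8 CPM in AKI_PBS and 32.8, 28.6 and 28.03 CPM in AKI_PTPi_mEVs. AKI_PBS was above the other groups in every library, with replicate 2 far above replicates 1 and 3. Nes rose 2.03-fold (log2 ratio 1.02 ± 0.21, adjusted p = 0.00131 by edgeR) and was lower with the vesicles (log2 ratio -0.79 ± 0.21, adjusted p = 0.00722 by edgeR). Without AKI_PBS replicate 2 the latter was -0.46 and still passed.

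The 3 falls of this role, in Arhgap24, Clic5 and Clic3, each exceeded 1 on the log2 scale. Arhgap24, a Rac-inactivating GTPase regulator that is mutated in some podocyte disease, held 286, 302 and 290 CPM in sham, 88.4, 80.7 and 75.8 CPM in AKI_PBS and 315, 285 and 340 CPM in AKI_PTPi_mEVs. All AKI_PBS libraries were far below both other groups, which overlapped. It fell 3.59-fold (log2 ratio -1.84 ± 0.13, adjusted p = 4.49e-07 by edgeR) and was higher with the vesicles (log2 ratio 1.94 ± 0.13, adjusted p = 8.18e-07 by edgeR), while AKI_PTPi_mEVs against sham gave 0.10 ± 0.13 (adjusted p = 0.664 by edgeR). Clic5, a chloride intracellular channel family gene whose protein joins ezrin and podocalyxin in foot processes, held 70.1, 69.1 and 66.2 CPM in sham, 29.5, 28.8 and 25.7 CPM in AKI_PBS and 80.7, 77.6 and 88.7 CPM in AKI_PTPi_mEVs. AKI_PBS was lowest in every library and AKI_PTPi_mEVs highest. Clic5 fell 2.44-fold (log2 ratio -1.29 ± 0.12, adjusted p = 3.89e-06 by edgeR) and was higher with the vesicles (log2 ratio 1.56 ± 0.12, adjusted p = 2.13e-06 by edgeR), and against sham it did not pass (log2 ratio 0.27 ± 0.12, adjusted p = 0.165 by edgeR).

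Clic3, another gene of the same family, held 15.1, 19.2 and 11.7 CPM in sham, 1.90, 3.60 and 0.442 CPM in AKI_PBS and 6.06, 7.42 and 10.99 CPM in AKI_PTPi_mEVs. The 3 groups did not overlap, with sham highest and AKI_PBS lowest, and AKI_PBS replicate 3 rests on 5 counts. Clic3 fell 7.66-fold after injury (log2 ratio -2.94 ± 0.47, adjusted p = 0.000203 by edgeR) and was higher with the vesicles (log2 ratio 2.02 ± 0.47, adjusted p = 0.00346 by edgeR). Without AKI_PBS replicate 2 these values were -3.69 (12.9-fold) and 2.78, and both calls held. Against sham it gave -0.91 ± 0.41 (adjusted p = 0.165 by edgeR), which passed with no low-count filter (-0.91) and with only the 2 groups fitted (-0.94).

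Myo1e and Actn4 rose by less, and Iqgap2 did not pass. Myo1e, a class I myosin, had 53.7 ± 5.99 CPM (SD, n = 3) in sham and 74.9 ± 1.25 CPM (SD, n = 3) in AKI_PBS and rose (log2 ratio 0.48 ± 0.12, adjusted p = 0.00499 by edgeR). Actn4, which encodes the actin crosslinker alpha-actinin-4 of most cells, had 356 ± 21.1 CPM (SD, n = 3) in sham, 442 ± 7.28 CPM (SD, n = 3) in AKI_PBS and 486 ± 14.2 CPM (SD, n = 3) in AKI_PTPi_mEVs. It passed in AKI_PBS against sham (log2 ratio 0.31 ± 0.12, adjusted p = 0.0408 by edgeR), a call lost without any single one of 5 libraries: sham replicates 1 (0.25), 2 (0.33) and 3 (0.32) and AKI_PBS replicates 1 (0.32) and 2 (0.30). It was also lost with no low-count filter (0.28) and with only the 2 groups fitted (0.32). In AKI_PTPi_mEVs against sham Actn4 was higher (log2 ratio 0.45 ± 0.12, adjusted p = 0.0267 by edgeR), and leaving out any of the 6 libraries of that comparison ended the call (0.41 to 0.49). Iqgap2, a scaffold gene, did not pass in AKI_PBS against sham (log2 ratio 0.34 ± 0.14, adjusted p = 0.0503 by edgeR) but did without sham replicate 1 (0.41) or AKI_PBS replicate 2 (0.40), with library totals (0.41) and with limma voom (0.34).

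**Figure D3:**
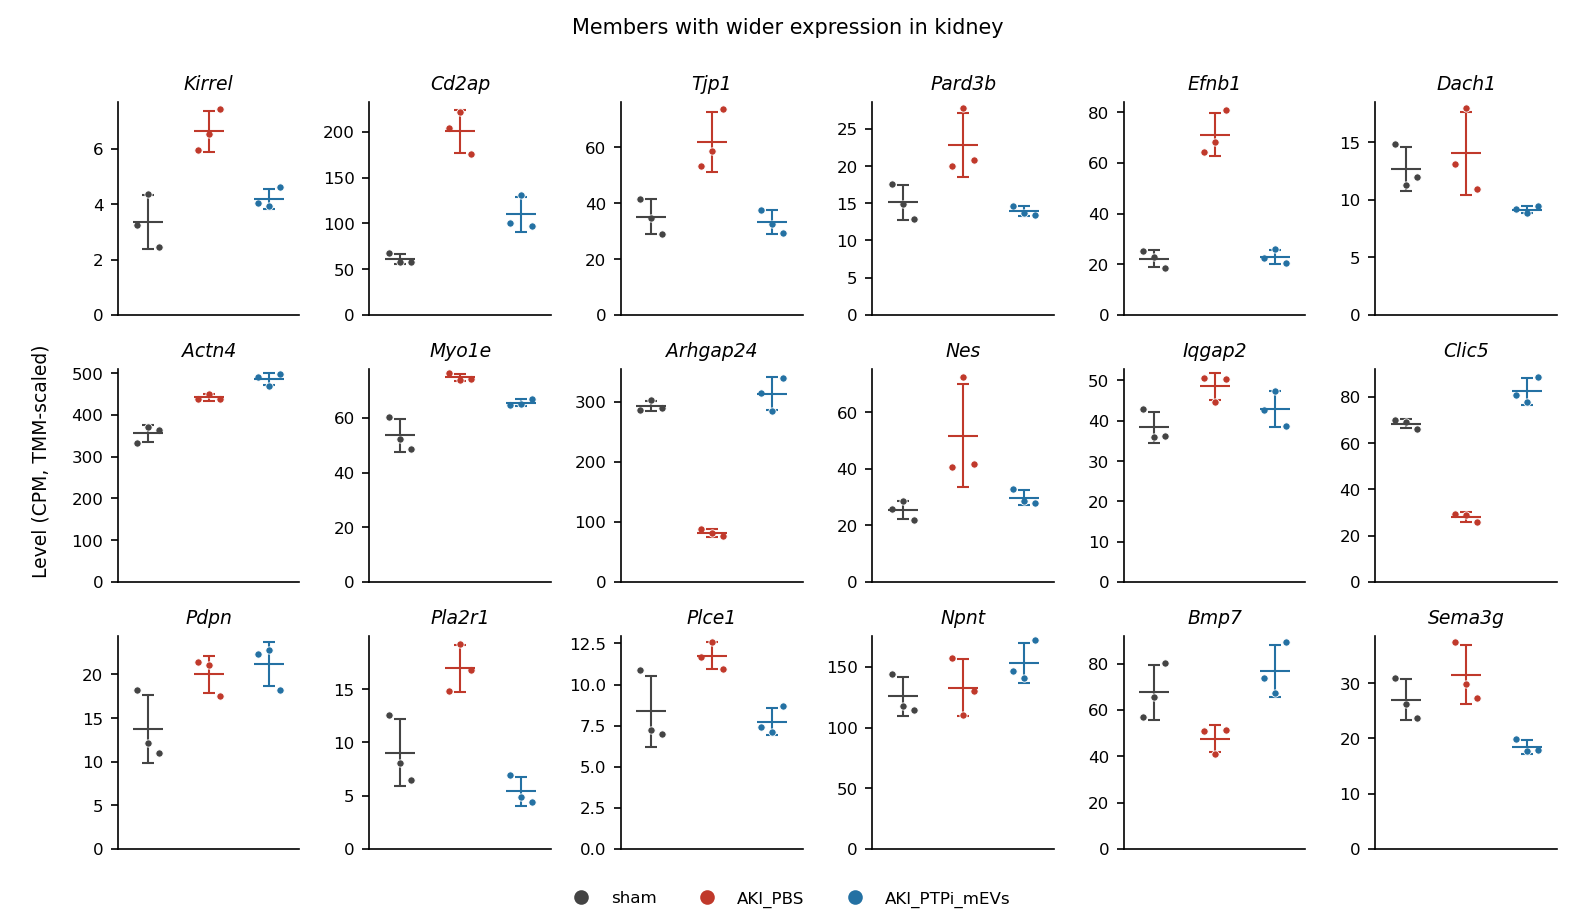
Levels (y axis, CPM, from zero) of the 18 members with wider expression in kidney, by group, with 1 point per library and the mean ± SD. Cd2ap and Efnb1 are higher in every AKI_PBS library than in any other, Arhgap24 and Clic5 are lower, and Actn4 is highest in AKI_PTPi_mEVs.

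Of the 9 surface, signalling and matrix members, 3 rose, 1 fell and 5 did not pass after injury (median 0.22). With the vesicles 1 was higher than in AKI_PBS, 4 were lower and 4 did not pass (median -0.37). In these comparisons 44.4% and 55.6% passed, beside 55.7% and 51.1% of all genes. Podxl encodes podocalyxin, the charged sialoprotein of the podocyte surface that endothelium and mesothelium carry too. It held 114, 110 and 83.7 CPM in sham, 130, 178 and 132 CPM in AKI_PBS and 99.5, 107 and 98.4 CPM in AKI_PTPi_mEVs. AKI_PBS was above both other groups in every library, and AKI_PBS replicate 2 lay far above the rest. Podxl rose (log2 ratio 0.52 ± 0.16, adjusted p = 0.0136 by edgeR), a call lost without sham replicate 3 (0.39) or AKI_PBS replicate 2 (0.36). It was lower with the vesicles (log2 ratio -0.54 ± 0.16, adjusted p = 0.0133 by edgeR), a call lost without AKI_PBS replicate 2 (-0.37) or AKI_PTPi_mEVs replicate 3 (-0.50).

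Ptpro, a receptor tyrosine phosphatase of the foot process membrane also called GLEPP1, held 15.4, 13.6 and 12.2 CPM in sham, 13.8, 14.7 and 8.13 CPM in AKI_PBS and 14.8, 14.3 and 18.03 CPM in AKI_PTPi_mEVs. The groups overlapped, with AKI_PBS replicate 3 below all others, and no comparison passed (adjusted p = 0.549 by edgeR for AKI_PBS against sham and adjusted p = 0.196 by edgeR for AKI_PTPi_mEVs against AKI_PBS). Thsd7a and Pla2r1 encode target antigens of human membranous nephropathy. Thsd7a held 17.7, 14.5 and 14.2 CPM in sham, 9.77, 12.5 and 15.4 CPM in AKI_PBS and 11.4, 8.19 and 9.45 CPM in AKI_PTPi_mEVs. It passed in no comparison. Its nearest was AKI_PTPi_mEVs against sham, where the groups did not overlap (log2 ratio -0.68 ± 0.22, adjusted p = 0.0555 by edgeR) and where DESeq2 (-0.68), no low-count filter (-0.67), the stricter filter (-0.71) and only the 2 groups fitted (-0.70) gave a call.

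Pla2r1, in contrast, held 12.5, 8.09 and 6.50 CPM in sham, 14.9, 19.2 and 16.8 CPM in AKI_PBS and 6.97, 4.91 and 4.40 CPM in AKI_PTPi_mEVs. AKI_PBS was above both other groups in every library, and 2 of the 3 AKI_PTPi_mEVs libraries lay below all of sham. Pla2r1 rose (log2 ratio 0.91 ± 0.26, adjusted p = 0.00914 by edgeR) and was lower with the vesicles (log2 ratio -1.63 ± 0.27, adjusted p = 0.000296 by edgeR). Against sham AKI_PTPi_mEVs gave -0.73 ± 0.27, which did not pass (adjusted p = 0.0949 by edgeR).

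Pdpn, which encodes podoplanin of podocytes, mesothelium and lymphatic vessels, had 13.8 ± 3.91 CPM (SD, n = 3) in sham, 20.04 ± 2.13 CPM (SD, n = 3) in AKI_PBS and 21.2 ± 2.52 CPM (SD, n = 3) in AKI_PTPi_mEVs. It rose in AKI_PBS (log2 ratio 0.54 ± 0.20, adjusted p = 0.0374 by edgeR), a call lost without sham replicate 2 (0.44) or 3 (0.40), without AKI_PBS replicate 1 (0.49) or 2 (0.51) and with only the 2 groups fitted (0.54). Pdpn (log2 ratio 0.08 ± 0.20, adjusted p = 0.763 by edgeR) and Actn4 (log2 ratio 0.14 ± 0.12, adjusted p = 0.349 by edgeR) were the members that rose after injury and had an estimate above zero between the injured groups. AKI_PTPi_mEVs against sham gave 0.62 ± 0.20 (adjusted p = 0.0635 by edgeR), which passed without sham replicate 1 (0.88), with DESeq2 (0.62) and with no low-count filter (0.63).

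Bmp7, a growth factor of podocytes and of distal nephron, was the 1 gene of this role that fell, from 67.7 ± 11.9 CPM (SD, n = 3) in sham to 47.7 ± 5.92 CPM (SD, n = 3) in AKI_PBS (log2 ratio -0.51 ± 0.16, adjusted p = 0.019 by edgeR). The call was lost without sham replicate 3 (-0.37) or AKI_PBS replicate 2 (-0.40). With the vesicles Bmp7 was higher than in AKI_PBS (log2 ratio 0.69 ± 0.16, adjusted p = 0.00375 by edgeR). Sema3g, a secreted semaphorin of podocytes and arteries, had 26.95 ± 3.70 CPM (SD, n = 3) in sham, 31.5 ± 5.30 CPM (SD, n = 3) in AKI_PBS and 18.5 ± 1.25 CPM (SD, n = 3) in AKI_PTPi_mEVs. It was lower with the vesicles than in AKI_PBS (log2 ratio -0.77 ± 0.17, adjusted p = 0.00202 by edgeR) and than in sham (log2 ratio -0.54 ± 0.17, adjusted p = 0.0485 by edgeR). The call against sham was lost without any one of the 6 libraries (-0.43 to -0.62), with library totals (-0.58), with limma voom (-0.53) and with no low-count filter (-0.54).

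Plce1, a phospholipase C needed for glomerular development, had 11.7 ± 0.828 CPM (SD, n = 3) in AKI_PBS and 7.74 ± 0.837 CPM (SD, n = 3) in AKI_PTPi_mEVs. Its lower level with the vesicles passed (log2 ratio -0.60 ± 0.22, adjusted p = 0.0332 by edgeR). The call was lost without AKI_PBS replicate 1 (-0.60) or 2 (-0.55), without AKI_PTPi_mEVs replicate 1 (-0.56), 2 (-0.53) or 3 (-0.68) and with no low-count filter (-0.56). After injury Plce1 gave 0.49 ± 0.22 (adjusted p = 0.0701 by edgeR) and passed without sham replicate 1 (0.71) and with limma voom (0.51). Npnt, the matrix ligand nephronectin made by podocytes and tubules, lay between 110 and 172 CPM in all 9 libraries and passed in no comparison (adjusted p = 0.689 by edgeR, adjusted p = 0.285 by edgeR and adjusted p = 0.25 by edgeR).

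The members were also divided by how far they are tied to podocytes in the kidney, from general knowledge. The division is rough, because Podxl, Wt1 and Tcf21 are placed among the 13 below although other kidney cells carry them too. Counts and sums of the 13 therefore do not follow podocytes alone. Of the 13 known mainly from podocytes, 4 rose (Wt1, Synpo, Rhpn1 and Podxl), 3 fell (Magi2, Tcf21 and Clic3) and 6 did not pass after injury, with a median of -0.11. Among the 18 with wider expression, 10 rose, 3 fell and 5 did not pass, with a median of 0.48. In either direction 53.8% of the 13 and 72.2% of the 18 passed, beside 55.7% of all tested genes. The count among the 13 is thus near that of all genes. The difference between these lists was not tested. The summed level of the 13 was 296 to 370 CPM in sham, 375 to 499 CPM in AKI_PBS and 293 to 322 CPM in AKI_PTPi_mEVs. It rests on 3 abundant members: Podxl, Rhpn1 and Synpo made 60.4% to 65.0% of it in sham and 73.9% to 78.7% in AKI_PBS. The other 10 summed to 104 to 147 CPM in sham, 98.0 to 106 CPM in AKI_PBS and 89.0 to 107 CPM in AKI_PTPi_mEVs, a division made after the values were seen. In AKI_PTPi_mEVs against AKI_PBS, 4 of the 13 were lower, 2 higher and 7 did not pass. The share passing was 46.2%, beside 51.1% of all genes. Against sham 0 of the 13 passed by edgeR, beside 13.2% of all genes. At an unadjusted edgeR p under 0.05, Clic3 and Thsd7a were lower than sham and 0 were higher, while DESeq2 called 1 (Thsd7a, lower) and limma voom 0 after adjustment.

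Per kilobase of exon, levels differed widely between members. In sham, Actn4 was at 58.05 CPM per kilobase, Arhgap24 at 33.3 and Npnt at 24.99, all genes with wider expression. Podxl (18.6) and Rhpn1 (17.3) led the genes known mainly from podocytes. Nphs1 lay at 2.17, Cdkn1c at 2.36, Wt1 at 2.56 and Ptpro at 2.04 CPM per kilobase, close to each other. Lmx1b (0.426), Kirrel (0.449) and Foxc2 (0.456) were the lowest in sham. In AKI_PBS, Wt1 stood at 5.42 and Nphs1 at 1.99 CPM per kilobase. Rhpn1 thus stood well above Nphs1 on this scale.

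Of 24 further podocyte genes, chosen like the members with earlier results of these data known, 21 were tested. After injury 8 rose, 5 fell and 8 did not pass, with a median of 0.27. The rises with the smallest adjusted p were those of Myh9, non-muscle myosin (log2 ratio 1.59 ± 0.15, adjusted p = 2.61e-06 by edgeR), Ezr, the membrane-actin linker ezrin (log2 ratio 1.40 ± 0.13, adjusted p = 3.27e-06 by edgeR), the formin Inf2 (log2 ratio 1.73 ± 0.23, adjusted p = 5.18e-05 by edgeR) and the polarity kinase Prkci (log2 ratio 1.11 ± 0.17, adjusted p = 0.000115 by edgeR). The corresponding falls were those of Slc9a3r2, a partner of podocalyxin (log2 ratio -1.24 ± 0.17, adjusted p = 4.85e-05 by edgeR), the aminopeptidase Enpep (log2 ratio -1.05 ± 0.17, adjusted p = 0.000187 by edgeR), Vegfa, the vascular growth factor that podocytes make for the capillaries (log2 ratio -0.70 ± 0.19, adjusted p = 0.00708 by edgeR), and the guidance receptor Robo2 (log2 ratio -0.75 ± 0.25, adjusted p = 0.022 by edgeR). With the vesicles 12 were lower than in AKI_PBS, 2 higher and 7 did not pass. The shares passing were 61.9% after injury, 66.7% between the injured groups and 14.3% in AKI_PTPi_mEVs against sham. Those of all genes were 55.7%, 51.1% and 13.2%. Myh9 (-0.99 ± 0.14), Ezr (-0.89 ± 0.13), Inf2 (-1.35 ± 0.23) and Foxd1 (-2.19 ± 0.42) had the smallest adjusted p among the lower ones, and Enpep (1.35 ± 0.17) and Slc9a3r2 (0.77 ± 0.17) were the higher ones. The forkhead gene Foxd1 is also among the 8 that rose, but it reached the filter's minimum only in AKI_PBS (18 to 35 counts per library, 2 to 5 in the other groups). It was thus tested only through the group where it is high and had to differ. Against sham 3 were higher, Myh9 (log2 ratio 0.60 ± 0.14, adjusted p = 0.017 by edgeR), Fat1 (log2 ratio 0.57 ± 0.14, adjusted p = 0.0193 by edgeR) and Ezr (log2 ratio 0.51 ± 0.13, adjusted p = 0.0221 by edgeR), and 0 were lower. At an unadjusted edgeR p under 0.05 there were 4 lower ones (Dlc1, Robo2, Slc9a3r2 and Vegfa), of which DESeq2 called 2 (Dlc1 and Vegfa) and limma voom 0 after adjustment. Many of these genes are active in tubules and vessels as well.

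Among 12 genes of the glomerular basement membrane and its receptors, 5 rose and 4 fell after injury. Laminin and integrin genes led the rises: Lamc1 (log2 ratio 1.44 ± 0.12, adjusted p = 1.46e-06 by edgeR), Lama5 (log2 ratio 1.45 ± 0.13, adjusted p = 2.04e-06 by edgeR), Itga3 (log2 ratio 1.33 ± 0.19, adjusted p = 7.63e-05 by edgeR) and Itgb1 (log2 ratio 0.95 ± 0.14, adjusted p = 0.000135 by edgeR). Collagen IV chains of the mature membrane fell, Col4a5 (log2 ratio -1.68 ± 0.19, adjusted p = 1.44e-05 by edgeR), Col4a3 (log2 ratio -1.20 ± 0.17, adjusted p = 9.21e-05 by edgeR) and Col4a4 (log2 ratio -0.55 ± 0.15, adjusted p = 0.00628 by edgeR), as did Nid2, a linker of laminin and collagen (log2 ratio -0.64 ± 0.18, adjusted p = 0.00945 by edgeR). With the vesicles 5 were lower and 4 higher than in AKI_PBS. In each of these comparisons 75% of the 12 passed, beside 55.7% and 51.1% of all genes. Lama5 (-1.41 ± 0.13), Lamc1 (-1.04 ± 0.12), Nid1 (-1.11 ± 0.22) and Itga3 (-0.66 ± 0.19) led the lower ones, and Col4a5 (1.40 ± 0.19), Nid2 (0.78 ± 0.18), Col4a3 (0.70 ± 0.17) and Agrn (0.59 ± 0.18) were the higher ones. Collagen IV and laminin chains are made in tubules too.

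Markers of other cells moved beside the members. Their counts stand beside 55.7% of all genes passing after injury and 51.1% between the injured groups. Glomerular endothelium (10 genes, 9 tested) had 2 higher and 4 lower after injury. It summed to 403 to 707 CPM in sham, 503 to 763 CPM in AKI_PBS and 364 to 513 CPM in AKI_PTPi_mEVs, ranges that overlap. Its marker Sost had too few counts to be tested, with 3 in each sham library and 1 to 7 in AKI_PTPi_mEVs. In all AKI_PBS libraries it was at 0 counts, which allows up to 3 counts per library. The mesangium list (7 genes, 6 tested) had 3 higher and 2 lower and summed to 271 to 381, 381 to 503 and 238 to 325 CPM in the same order. Ren1 took the largest part of that sum, with means of 164, 248 and 90.5 CPM. Parietal epithelium, the lining of Bowman's capsule, had 3 of 5 higher and 1 lower, and its sum of 258 to 263 CPM in sham stood beside 466 to 806 CPM in AKI_PBS and 286 to 304 CPM in AKI_PTPi_mEVs. Akap12 led that change (log2 ratio 4.62 ± 0.33, adjusted p = 7.26e-07 by edgeR), with means of 13.4 CPM in sham and 331 CPM in AKI_PBS. Pax8 made most of the parietal sum in sham, with a mean of 196 CPM. For Wt1, Podxl and Pdpn, which mesothelium shares, the mesothelial list (8 genes, 5 tested) had 1 higher and 2 lower and summed to 207 to 289 CPM in sham, 147 to 198 CPM in AKI_PBS and 200 to 311 CPM in AKI_PTPi_mEVs. Gpm6a made most of that sum in sham, with a mean of 174 CPM beside a mean sum of 237 CPM. The mesothelial markers Bnc1 and Muc16 were at 0 counts in all libraries, which allows up to 3 counts per library for each, by counting error alone.

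Lymphatic markers, of interest for Pdpn, had 1 of 5 higher (Lyve1, which reached the filter's minimum only in AKI_PBS and so had to differ) and 2 lower, and summed to 27.3 to 42.8 CPM in sham, 17.8 to 24.6 CPM in AKI_PBS and 14.5 to 18.2 CPM in AKI_PTPi_mEVs. Proximal tubule markers fell in 7 of 8 after injury, and their sum was 8811 to 10916 CPM in sham, 2586 to 4220 CPM in AKI_PBS and 6379 to 10407 CPM in AKI_PTPi_mEVs. Distal nephron markers fell in 6 of 8, with sums of 4572 to 5287, 2173 to 3758 and 3952 to 4398 CPM in that order. With the vesicles, 7 of 8 proximal tubule markers were higher than in AKI_PBS, 4 of 8 distal nephron markers were higher and 1 lower, and 2 of 5 parietal markers were lower. Of the tested endothelial markers 4 were lower and 1 higher, of the mesangial ones 2 lower and 1 higher, of the mesothelial ones 1 lower and 3 higher, and of the lymphatic ones 3 lower (Lyve1 among them) and 1 higher. Malat1 and Neat1, nuclear RNAs, took 0.315% to 0.362% of counts in sham, 0.699% to 1.01% in AKI_PBS and 0.322% to 0.337% in AKI_PTPi_mEVs. Mitochondrial genes took 1.63% to 2.29% in sham, 2.03% to 2.43% in AKI_PBS and 1.23% to 1.39% in AKI_PTPi_mEVs, where each library was below every other one. All 31 members together took 0.141% to 0.168%, 0.169% to 0.202% and 0.169% to 0.181% of counts, in the same order. The part of other cells and of RNA quality in the members' results was not tested.

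**Figure D4:**
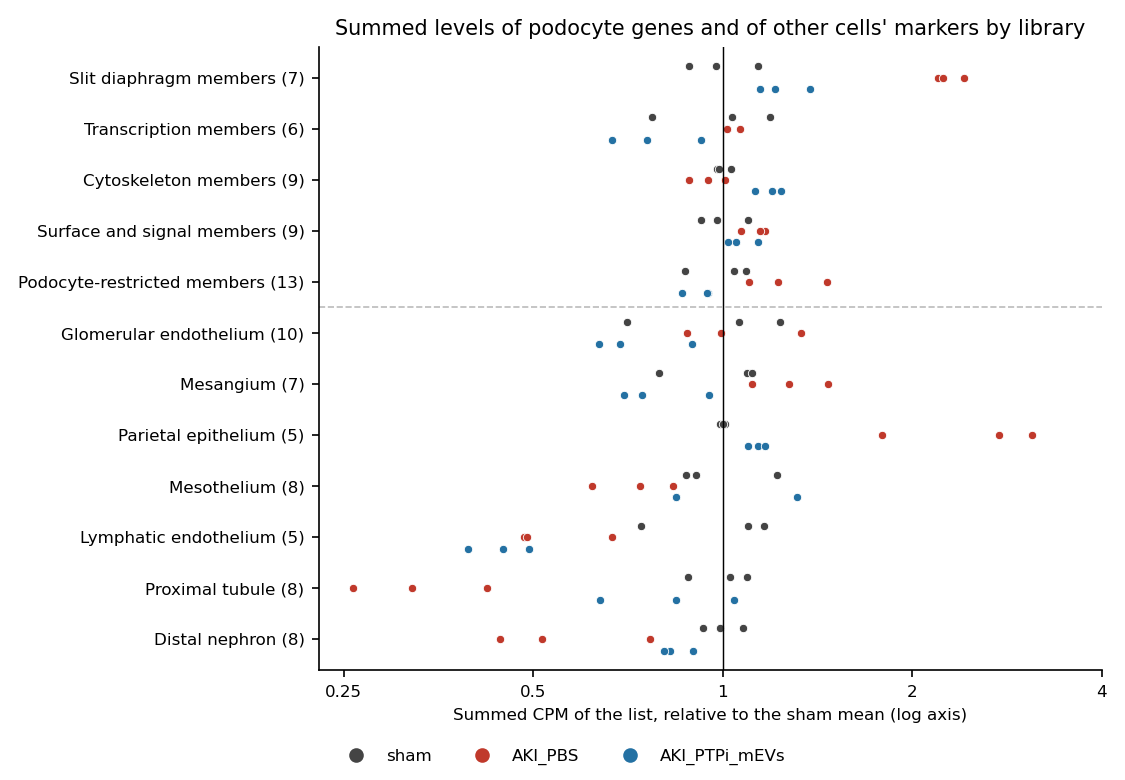
Summed CPM of each list in every library, divided by the sham mean of that list (x axis, log scale), for the podocyte members above the dashed line and for markers of other cells below it. The slit diaphragm members sum to 372 to 408 CPM in AKI_PBS against 149 to 193 CPM in sham. Cd2ap is the largest part of that sum, Nphs1 did not pass and Magi2 fell. The parietal list is also higher in AKI_PBS, at 466 to 806 CPM against 258 to 263 CPM in sham. Akap12 led that change, from a mean of 13.4 CPM in sham to 331 CPM in AKI_PBS. Cldn1 and Cdh6 also rose, Pax8 did not pass and Pax2 fell. The proximal tubule list lies lowest in AKI_PBS.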

How the data were processed

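Kidney RNA of 9 libraries, 3 per group, was sequenced, and the authors deposited whole-number read counts per gene. The submitters' processing notes name STAR and HTSeq, with versions not given in the sources used here. The notes also name the human build GRCh38.p14, although every identifier is a mouse Ensembl one, so the build behind the counts is not settled. Whether counting used strand is not stated in those sources either.

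Identifiers were paired with symbols by a table (52073 of 56923). Counts were filtered with filterByExpr (17036 genes left), scaled with TMM and fitted with edgeR 4.0.16 in R 4.3.3, 1 mean per group over all 9 libraries, with 6 residual degrees of freedom and p-values adjusted over all tested genes. The standard error was the log2 ratio divided by the square root of its F. The code was tested on simulated data. Library totals of 9467851 to 11389479 limit the precision for members with few counts. No libraries within a group agreed within sampling noise. The members and lists were chosen with earlier results of these data known. Levels are given library by library for the 13 members known mainly from podocytes and for members called with an absolute log2 ratio of at least 1. The other members are given as means or ranges. From the wider podocyte and basement membrane lists, up to 4 genes per direction with the smallest adjusted p are named. Genes from lists of other cells are named for their change, their part of a sum or their low counts, not by adjusted p. Alternatives were DESeq2 1.42.0, limma 3.58.1 voom, relative log expression factors, library totals, no filter and a stricter one, a replicate block, fits of 2 groups, an absolute log2 ratio of at least 1 and leaving out each library. Exon lengths came from GENCODE M21 and sequences from RefSeq.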

Additional observations from a re-analysis of the deposited data

How the results depend on the processing

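No member changed direction in a call under any alternative run. Over 433 values per comparison, 407, 400 and 407 stayed on their side of the threshold in AKI_PBS against sham, AKI_PTPi_mEVs against AKI_PBS and AKI_PTPi_mEVs against sham. Calls were lost in 20, 27 and 15 and gained in 6, 6 and 11, in 7, 8 and 6 genes. With an absolute log2 ratio of at least 1 also required, 4 members were higher and 4 lower in AKI_PBS against sham, 3 were higher and 3 lower in AKI_PTPi_mEVs against AKI_PBS, and 0 were higher and 0 lower in AKI_PTPi_mEVs against sham, where that requirement is the cause. Members lower in AKI_PTPi_mEVs against sham numbered 0 with library totals and with limma voom, 2 with DESeq2 and with the stricter filter, and 3 with no filter and with only the 2 groups fitted; the cause was not tested. Leaving out 1 library in turn gave 10 to 15 higher and 5 to 6 lower in AKI_PBS against sham, 4 to 5 higher and 10 to 14 lower in AKI_PTPi_mEVs against AKI_PBS, and 1 to 2 higher and 0 to 0 lower in AKI_PTPi_mEVs against sham. With library totals, all tested genes split into 5249 higher and 4306 lower in AKI_PBS against sham (4734 and 4754 with TMM) and into 3767 and 5042 in AKI_PTPi_mEVs against AKI_PBS (4320 and 4391 with TMM).

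Replicate numbers gave no sign of pairing the samples: deviations of same-numbered libraries correlated between -0.19 and 0.11, and those of differently numbered ones between -0.17 and 0.15. With 3 libraries per group this cannot exclude a pairing. With the replicate number as a block, 13 members were higher and 6 lower in AKI_PBS against sham, 5 and 13 in AKI_PTPi_mEVs against AKI_PBS, and 3 and 1 in AKI_PTPi_mEVs against sham. Under the block Actn4 (0.31) in the first and Kirrel (-0.66) in the second comparison did not pass, and Pdpn (0.64) passed in the last. Few counts limit Lmx1b, Foxc2 and Clic3.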
